A study of Bos taurus with 27 samples.

Results

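The immediate early genes FOS, FOSB, JUN, JUNB, EGR1, EGR2, IER2, ATF3, DUSP1 and NR4A1 were followed in superficial cervical lymph nodes of cattle, biopsied before and during feeding of the cattle tick. A gene belonged to the set when a probe of the deposited expression table carried its symbol, either as deposited or after updating to the current RefSeq symbol. Of the 10 genes listed, 9 were measured, by 22 probes, among 14495 named genes. EGR2 matched no probe used here and was not analysed here. The rule used gene names and no measured value.

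RNA came from 3 breeds of cattle: Bonsmara, a composite breed of southern Africa, Brahman, a zebu breed, and Holstein-Friesian, a taurine dairy breed. Each breed was sampled at 3 stages, namely baseline, with no tick attached, then larva, during infestation with tick larvae, and adult, during infestation with adult ticks. These make 9 groups of 3 arrays, 27 arrays in all. For adult replicate 2 of each breed the free-text description names both larvae and adult, while title, source and stage field say adult, so these 3 of the 9 adult arrays were kept as adult and the adult results were also computed without them. The labels call the replicates biological, but leave unsaid if the same animals were biopsied at each stage, and the arrays used here hold no animals without ticks at the later stages, so time and tick feeding cannot be told apart. All biopsies were kept on ice and then moved to an RNA stabilising solution, and the time between these steps is not in the labels. No other treatment or genetic change is labelled for any group.

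Immediate early genes are switched on within minutes of a stimulus without new protein synthesis, through MAP kinases and the transcription factors SRF and CREB that already sit at their promoters. Their messages are short-lived, so the level in a biopsy reflects the very recent past of the tissue. In lymph nodes they respond to antigen receptor signals and cytokines, and in any tissue they are also known to respond to cutting, warming, dissociation and delay before the RNA is fixed. They are therefore often read as a check of how alike the handling of samples was.

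Each value is a log2 ratio of the sample, labelled with the red dye Cy5, to pooled RNA of the same kind of node, labelled with the green dye Cy3. The file names neither log base nor direction. Base 2 and sample over pool were taken as likely, since samples carried the red dye and limma, the package named in the processing notes, computes red over green. A value of 0 then means the level of the pool, and because the pool is the same on all arrays it cancels in every comparison. The pool is itself lymph node, so ratios cannot be compared between genes as levels, and the tissue label cannot be tested by a marker's absolute level. In these pieces of whole node, fewer cells of a type and less RNA per cell cannot be told apart.

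The deposited values had array medians from -0.0095 to 0.0059 and SDs from 0.220 to 0.547, with no missing value. A pair of arrays stood apart. Holstein-Friesian larva replicate 3, as labelled, averaged an r of -0.085 with its group's other arrays, and over the 50 features that best separated the breeds in the other arrays it lay closer to Brahman (root mean square distance 0.377) than to its own breed (1.375). The array labelled Bonsmara larva replicate 3 lay closer to Holstein-Friesian (0.606) than to its own breed (1.104). Leaving this pair out, 0 of the 9 genes passed the test described below in any of the comparisons made, nor did any pass without the 3 adult arrays of mixed description. The values without the pair stand beside the larva differences and correlations that the text turns on, but not beside the interactions.

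Differences between groups were tested with limma over all 28927 features, named genes and unnamed probes alike, with Benjamini-Hochberg adjustment and a threshold of 0.05. In 21 comparisons, 12 between stages and 9 between breeds, 0 of the 9 immediate early genes passed the threshold, against 0.147% of all features over the same comparisons. Of the 189 pairs of gene and comparison, 16 had an unadjusted p under 0.05, a share close to the 8.99% of all features, and the smallest adjusted p was 0.218. The moderated F test for any difference among the 9 groups passed for 0 of the 9 genes, against 0.46% of all features. At an unadjusted p under 0.05 that F test also took 0 of the 9, against 13% of all features, and its smallest p was 0.0775 for NR4A1 (adjusted p = 0.44). A p above the threshold does not show that the groups were alike, so each difference below is given with its 95% interval.

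**Figure D1:**
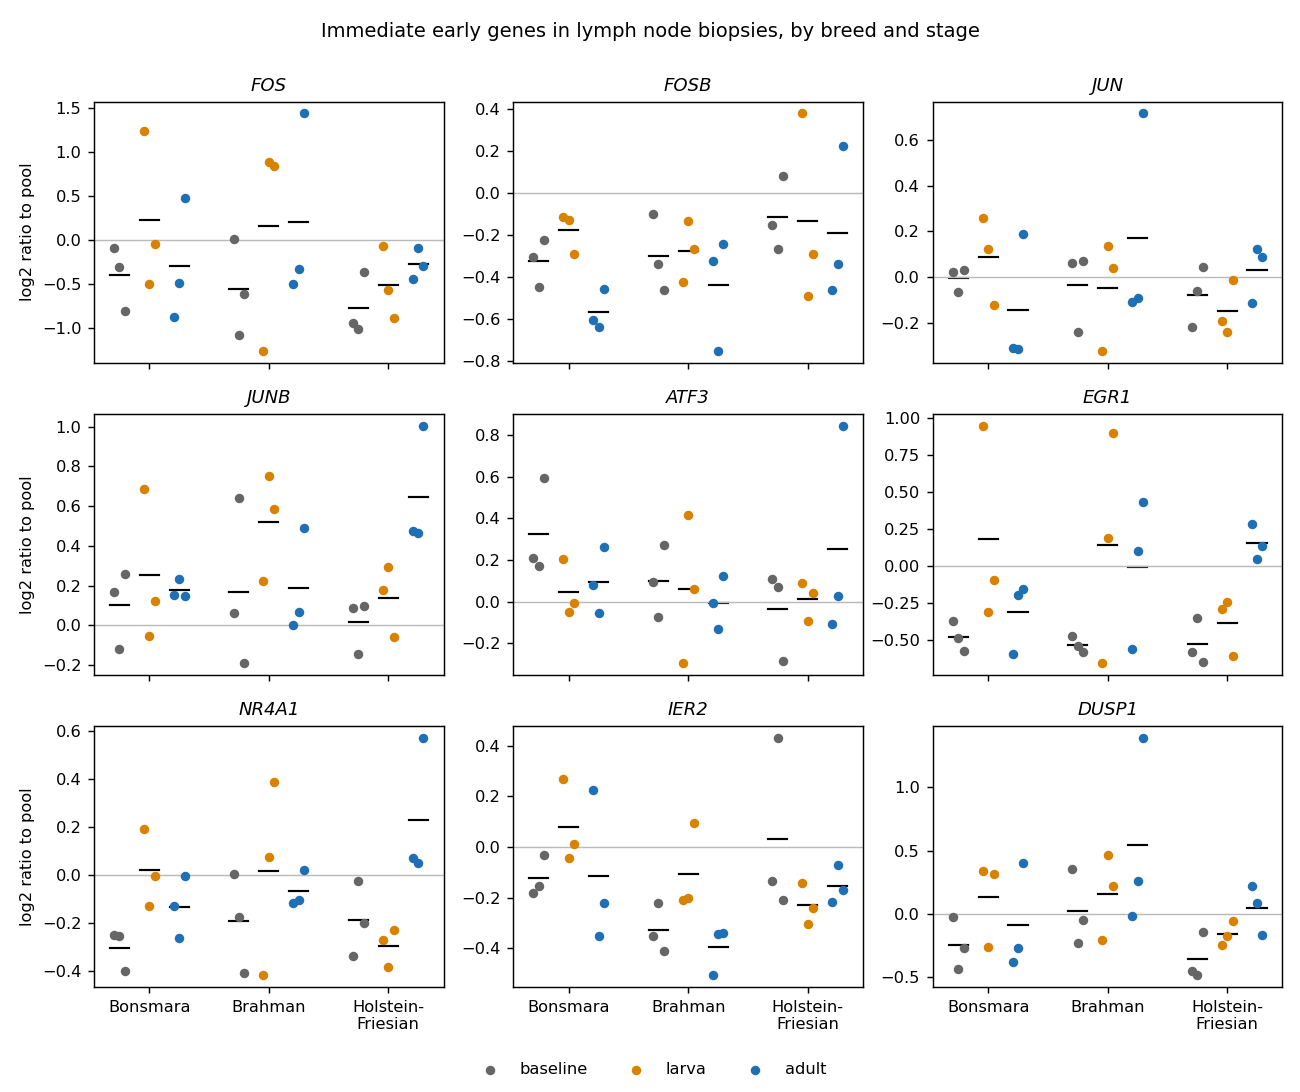
Log2 ratio to the pool of the 9 measured immediate early genes, 1 panel a gene, by breed along the horizontal axis and by stage in colour; each point is 1 array, each black bar the mean of 3 arrays, and the vertical scales differ between panels. EGR1 lies below 0 on all 9 baseline arrays, and single arrays such as Brahman adult replicate 3 at 1.44 for FOS lie far from the rest of their group.

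EGR1 came closest to the threshold. It encodes a zinc finger transcription factor that is induced by growth factor and antigen receptor signals. In Bonsmara nodes EGR1 read -0.37, -0.49 and -0.57 at baseline, 0.95, -0.31 and -0.095 with larvae, and -0.59, -0.19 and -0.15 with adult ticks. In Brahman nodes it read -0.47, -0.54 and -0.58 at baseline, -0.65, 0.19 and 0.90 with larvae, and -0.56, 0.11 and 0.44 with adult ticks. In Holstein-Friesian nodes it read -0.58, -0.35 and -0.65 at baseline, -0.29, -0.24 and -0.61 with larvae, and 0.28, 0.052 and 0.14 with adult ticks. The baseline arrays of all breeds thus lay close together and below the pool, whereas infested nodes ran from baseline values to well above the pool. All 9 baseline arrays were below 0, which held for 3.88% of named genes, and 7 of 9 larva arrays and 7 of 9 adult arrays lay above every baseline array. At least 7 arrays above every baseline array were found for 1.01% of named genes among larva arrays and for 0.58% among adult arrays. This cut is the count of EGR1 itself, set after its values were seen, so these shares describe and do not test. At least 4 such arrays were found for 6.91% of named genes among larva arrays and for 5.95% among adult arrays. With the ratios turned, pool over sample, the matching shares are 2.59% of named genes above 0 on every baseline array, and 0.393% with at least 7 larva and 0.207% with at least 7 adult arrays below every baseline array.

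Over the mean of the 3 breeds, EGR1 averaged -0.017 with larvae and -0.51 at baseline, a difference of 0.49 (SE 0.18, 95% interval 0.13 to 0.86). Its adjusted p by limma was 0.218 and its unadjusted p 0.0107, in a comparison where 1.21% of all features passed the threshold. Without the pair of arrays that stood apart the difference was 0.58 (limma adjusted p = 0.173). The call depended on 1 array: without Brahman larva replicate 1, whose EGR1 value of -0.65 was the lowest of all 27 arrays, the difference was 0.63 and its limma adjusted p 0.0442. Over all alternatives run for this difference, the adjusted p ranged from 0.0442 to 0.51.

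With adult ticks EGR1 averaged -0.053, against -0.51 at baseline, a difference of 0.46 (SE 0.18, 95% interval 0.09 to 0.82, limma adjusted p = 0.333), in a comparison where 0.0346% of all features passed. The larva and adult comparisons share the baseline arrays and are not independent of each other. By breed, the larva minus baseline difference of EGR1 was 0.66 in Bonsmara, 0.68 in Brahman and 0.14 in Holstein-Friesian nodes, each with an SE of 0.31. Without the pair of arrays that stood apart it was 0.80 in Bonsmara and 0.26 in Holstein-Friesian nodes. Single arrays set much of these sizes: it was 0.28 in Bonsmara nodes without larva replicate 1, and in Brahman nodes 1.08 without larva replicate 1 and 0.30 without larva replicate 3. The adult minus baseline difference was 0.16 in Bonsmara, 0.53 in Brahman and 0.68 in Holstein-Friesian nodes, with the same SE. The order of the 9 EGR1 group means ran from 0.18 in Bonsmara larva, 0.16 in Holstein-Friesian adult and 0.15 in Brahman larva nodes down to the baseline groups at -0.48, -0.53 and -0.53. The widest step between neighbours in that order, Brahman adult minus Bonsmara adult, was 0.31 (SE 0.31).

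FOS, the partner that joins JUN proteins to form the AP-1 transcription factor, had the widest range of the set. In Bonsmara nodes FOS read -0.087, -0.30 and -0.81 at baseline, 1.24, -0.50 and -0.045 with larvae, and -0.87, -0.49 and 0.48 with adult ticks. In Brahman nodes it read 0.009, -1.08 and -0.61 at baseline, -1.26, 0.89 and 0.85 with larvae, and -0.50, -0.33 and 1.44 with adult ticks. In Holstein-Friesian nodes it read -0.94, -1.01 and -0.36 at baseline, -0.066, -0.57 and -0.89 with larvae, and -0.44, -0.092 and -0.29 with adult ticks. The highest and the lowest FOS values both came from infested Brahman nodes, and every pair of stages overlapped in every breed. The larva minus baseline difference over breeds was 0.54 (95% interval -0.11 to 1.19, limma adjusted p = 0.496), with means of -0.039 with larvae and -0.58 at baseline. The adult minus baseline difference was 0.46 (95% interval -0.19 to 1.10, limma adjusted p = 0.582), with means of -0.12 with adult ticks and -0.58 at baseline. The adult difference was 0.25 without Brahman adult replicate 3, 0.21 with array quality weights and 0.25 after scaling every array to the same interquartile range. Without the pair of arrays that stood apart the larva difference of FOS was 0.65.

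JUNB, read by 1 probe, is an AP-1 subunit that dampens JUN and is induced in stimulated lymphocytes. In Holstein-Friesian nodes JUNB read 0.47, 0.46 and 1.01 with adult ticks, against 0.089, -0.14 and 0.10 at baseline, and the larva arrays read 0.18, 0.29 and -0.056. The adult arrays of this breed lay above both other stages without overlap. The adult minus baseline difference was 0.63 (SE 0.21, 95% interval 0.19 to 1.07, unadjusted p = 0.00678), and its adjusted p by limma was 0.914, in a comparison where 0% of all features passed the threshold. The difference was 0.45 without Holstein-Friesian adult replicate 3. In Bonsmara and Brahman nodes the adult and baseline arrays of JUNB overlapped. Over breeds the JUNB difference was 0.21 for larva minus baseline (95% interval -0.045 to 0.46) and 0.24 for adult minus baseline (95% interval -0.012 to 0.49).

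JUN, the main partner of FOS, stayed near the pool on most arrays. It ran from -0.24 to 0.072 at baseline, from -0.32 to 0.26 with larvae and from -0.31 to 0.72 with adult ticks. The highest value again came from Brahman adult replicate 3. Over breeds the JUN difference was 0.002 for larva minus baseline (95% interval -0.22 to 0.22) and 0.058 for adult minus baseline (95% interval -0.16 to 0.28).

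FOSB, a close relative of FOS, had probes that disagreed, with correlations between its 3 probes over the arrays from -0.126 to 0.41, so its mean is less certain than that of FOS, whose probes correlated at 0.91 to 0.966. In Bonsmara nodes FOSB read -0.61, -0.64 and -0.46 with adult ticks, against -0.30, -0.45 and -0.22 at baseline. The adult arrays lay below the baseline arrays, a difference of -0.24 (95% interval -0.64 to 0.16, limma adjusted p = 0.69), and this downward separation was found in 11.6% of all features. They also lay below the larva arrays at -0.11, -0.13 and -0.29, a difference of -0.39 (95% interval -0.79 to 0.009, limma adjusted p = 0.538), a separation found in 10.4% of features. In Holstein-Friesian nodes the probes of FOSB gave larva minus baseline differences of -0.37, -0.18 and 0.49.

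ATF3, a stress-induced member of the ATF and CREB family that pairs with JUN proteins, was read by 1 probe. It ran from -0.28 to 0.59 at baseline, from -0.29 to 0.42 with larvae and from -0.13 to 0.84 with adult ticks. Its highest value came from Holstein-Friesian adult replicate 3, the other arrays of that group reading -0.11 and 0.029. Over breeds its difference was -0.089 for larva minus baseline (95% interval -0.33 to 0.15) and -0.014 for adult minus baseline (95% interval -0.26 to 0.23).

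NR4A1, an orphan nuclear receptor whose transcription follows antigen receptor signals in lymphocytes, had its Holstein-Friesian adult arrays above both other stages. It read 0.071, 0.049 and 0.57 with adult ticks, against -0.34, -0.025 and -0.20 at baseline and -0.27, -0.39 and -0.23 with larvae. The adult minus baseline difference was 0.42 (95% interval 0.074 to 0.77, limma adjusted p = 0.964), and 0.25 without Holstein-Friesian adult replicate 3. The adult minus larva difference was 0.53 (95% interval 0.18 to 0.87, limma adjusted p = 0.822), and 0.56 (adjusted p = 0.449) without the pair of arrays that stood apart. In Bonsmara nodes NR4A1 read 0.19, -0.13 and -0.005 with larvae, against -0.25, -0.26 and -0.40 at baseline. That difference was 0.32 (95% interval -0.022 to 0.67, limma adjusted p = 0.349). Over breeds NR4A1 differed by 0.24 for adult minus baseline (95% interval 0.039 to 0.44, limma adjusted p = 0.352) and by 0.14 for larva minus baseline (95% interval -0.058 to 0.34, limma adjusted p = 0.569).

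In Holstein-Friesian nodes 3 of the 9 genes, JUNB, EGR1 and NR4A1, had all adult arrays above all baseline arrays, against 4.83% of all features. The same 3 genes had all adult arrays above all larva arrays, against 4.32% of all features. The same 3 genes had an unadjusted p under 0.05 for adult minus baseline, against 4.88% of all features, and 2 of them, JUNB and NR4A1, had one without the adult arrays of mixed description. All of these counts rest on the Holstein-Friesian adult arrays, so they are not independent of each other. The median adult minus baseline difference of the 9 genes in this breed was 0.40, against -0.006 over all features, and 0.25 without Holstein-Friesian adult replicate 3. In Bonsmara nodes EGR1 and NR4A1 had all larva arrays above all baseline arrays, against 12.7% of all features, and the median of the 9 genes was 0.20, against -0.02 over all features, and 0.12 without Bonsmara larva replicate 1. In Brahman nodes IER2 was the 1 gene so separated between larva and baseline, against 5.79% of all features.

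DUSP1, a phosphatase that switches MAP kinases off again and so limits the early response, read 1.39 in Brahman adult replicate 3, the highest of all arrays. The other arrays of that group read -0.017 and 0.26, against 0.36, -0.23 and -0.043 at Brahman baseline. In Bonsmara nodes DUSP1 read -0.38, -0.27 and 0.40 with adult ticks, against -0.021, -0.44 and -0.27 at baseline. In Holstein-Friesian nodes it read 0.23, 0.085 and -0.17 with adult ticks, against -0.45, -0.48 and -0.14 at baseline. Adult and baseline arrays overlapped in every breed. Over breeds DUSP1 differed by 0.36 for adult minus baseline (95% interval 0.029 to 0.69, limma adjusted p = 0.399), which was 0.22 without Brahman adult replicate 3, and by 0.24 for larva minus baseline (95% interval -0.095 to 0.57, limma adjusted p = 0.569).

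IER2, a small nuclear early response protein, had the smallest spread of the set between arrays of a group. Its 2 probes correlated at 0.295 over the arrays. It ran from -0.41 to 0.43 at baseline, from -0.30 to 0.27 with larvae and from -0.51 to 0.23 with adult ticks. Over breeds IER2 differed by 0.056 for larva minus baseline (95% interval -0.13 to 0.24) and by -0.081 for adult minus baseline (95% interval -0.26 to 0.10).

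**Figure D2:**
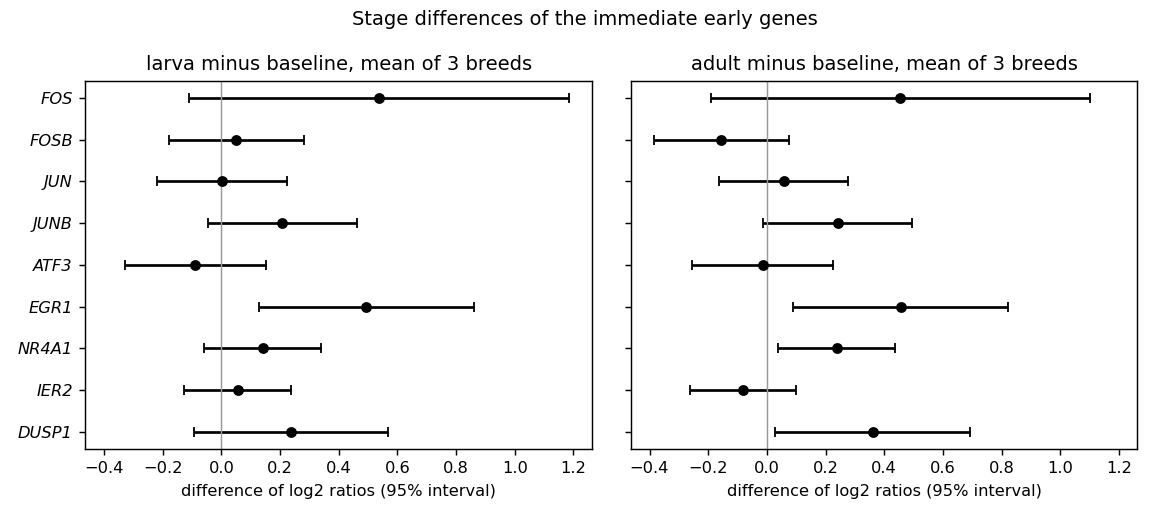
Difference of log2 ratios between stages for each gene, as the mean of 3 breeds, with larva minus baseline on the left and adult minus baseline on the right; points are limma estimates and bars their 95% intervals before adjustment for multiple tests. Among larva differences the interval of EGR1 alone lies above 0, and among adult differences those of EGR1, NR4A1 and DUSP1 do, while FOS has the widest interval in both.

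In the larva minus baseline comparison over breeds, EGR1 was the 1 gene of 9 with an unadjusted p under 0.05, where 12.5% of all features had one. There 8 of the 9 genes had a positive difference, with a median of 0.14, against -0.019 over all features, and the median was 0.079 without Brahman larva replicate 3 and 0.21 without Brahman larva replicate 1. JUN at 0.002 and FOSB at 0.05 count among the positive ones. Several of the genes varied together within groups, so such signs are not independent in this or the adult comparison. FOS, JUNB, EGR1 and DUSP1 were higher with larvae in the means of all 3 breeds, and 13% of all features were. In the adult minus baseline comparison EGR1, NR4A1 and DUSP1, 3 of 9, had an unadjusted p under 0.05, where 11.5% of all features had one, and 2 of 9, NR4A1 and DUSP1, did without the 3 arrays of mixed description. There 6 of 9 differences were positive, with a median of 0.24, against -0.021 over all features. FOS, JUNB, EGR1, DUSP1 and NR4A1 were higher with adult ticks in all 3 breeds, against 12.8% of all features, and FOSB was lower in all 3, against 17.4%. In adult minus larva nodes the median was 0.034 over breeds.

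Markers of several cell types moved with the stages. In the larva comparison over breeds, 4 of 9 lymph node stroma markers and 2 of 8 endothelium markers rose, and 3 of 10 T cell and 2 of 8 macrophage and dendritic cell markers fell, by the same limma test, against 1.21% of all features past the threshold in either direction. Leaving out the pair of arrays that stood apart, 1 of 8 macrophage and dendritic cell markers and 4 of 10 T cell markers fell. The stroma and endothelium counts were then 4 and 2, against 1.66% of all features past the threshold. The fat marker FABP4 also passed then (difference 1.27, limma adjusted p = 0.033). With all arrays, 0 of the red cell, skeletal muscle, skin and fat markers passed in the larva comparison over breeds. The mean log2 ratio of the stroma markers ran from -0.26 to 0.78 on larva arrays and from -0.70 to -0.20 on baseline arrays. That of the endothelium markers ran from -0.38 to 0.28 on larva arrays, from -0.42 to 1.14 on adult arrays and from -0.47 to -0.20 on baseline arrays. Of the stroma, endothelium, T cell, B cell, macrophage and neutrophil markers 0 passed for adult minus baseline over breeds. At an unadjusted p under 0.05, 5 of 8 endothelium markers (62.5%), 3 of 5 neutrophil (60%), 4 of 8 macrophage and dendritic cell (50%) and 4 of 9 stroma markers (44.4%) were higher there, against 5.67% of all features. At the same level 3 of 10 T cell and 1 of 5 B cell markers were lower, against 5.78% of all features. Without the 3 adult arrays of mixed description, CD14, a macrophage marker, and S100A12, a neutrophil marker, passed (limma adjusted p = 0.0113 and 0.00706). In that fit 33 of all 28927 features passed. In Holstein-Friesian nodes the neutrophil mean was 0.79, -0.35 and 1.13 with adult ticks, against -0.45, -0.21 and -0.30 at baseline. The part of cell composition in the differences of the immediate early genes was not tested.

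Between breeds, no immediate early gene passed at any stage. At baseline IER2 read -0.35, -0.22 and -0.41 in Brahman nodes, against -0.13, 0.43 and -0.21 in Holstein-Friesian nodes. This difference of -0.36 had a 95% interval of -0.67 to -0.045 and a limma adjusted p of 0.431, and was -0.16 without Holstein-Friesian baseline replicate 2, in a comparison where 0.0207% of features passed and 5.23% had all Brahman arrays below. At baseline ATF3 read 0.21, 0.17 and 0.59 in Bonsmara nodes, against 0.11, 0.069 and -0.28 in Holstein-Friesian nodes, a difference of 0.36 (limma adjusted p = 0.535; 0.23 without Bonsmara and 0.24 without Holstein-Friesian baseline replicate 3), and such an upward separation was found in 9.07% of features. With adult ticks JUNB, EGR1 and NR4A1 were lower on every Bonsmara array than on every Holstein-Friesian array, against 7.35% of all features. Their differences, Bonsmara minus Holstein-Friesian, were -0.47, -0.47 and -0.36, with limma adjusted p-values of 0.709, 0.89 and 0.716, and without Holstein-Friesian adult replicate 3 those of JUNB and NR4A1 were -0.29 and -0.19. These differences use the same Holstein-Friesian adult arrays as the stage separations above and are not independent of them. At baseline EGR1 had means of -0.48, -0.53 and -0.53 in Bonsmara, Brahman and Holstein-Friesian nodes.

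Whether the response to ticks differed between breeds was tested as an interaction. The F test over 4 interaction contrasts passed for 0 of the 9 genes and for 0% of all features, and its smallest p was 0.0658 for NR4A1 (adjusted p = 0.714). Of 81 pairwise interaction tests, 9 genes in 9 contrasts, 0 passed the threshold, against 0.000768% over all features, and the smallest adjusted p was 0.532. At an unadjusted p under 0.05 there were 6, a share close to the 6.6% of all features. The change between the adult and the larva stage of EGR1 was -1.03 in Bonsmara minus Holstein-Friesian nodes (limma unadjusted p = 0.0262, adjusted p = 0.735). That of NR4A1 was -0.68 (limma unadjusted p = 0.00862, adjusted p = 0.663). Both use the Bonsmara and Holstein-Friesian larva groups, each of which holds 1 array of the pair that stood apart. The interactions are not given here without that pair. No difference between breeds in the response was thus shown, and none is excluded by these p-values.

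The spread between arrays of one group was measured as the pooled within-group SD over 18 degrees of freedom. FOS had an SD of 0.72 (95% interval 0.55 to 1.07), at the 99.5 percentile of the 14495 named genes, whose median SD was 0.19. EGR1 had an SD of 0.40 (percentile 94.5) and DUSP1 one of 0.36 (percentile 92.0), against a 95th percentile of 0.42 over named genes. JUNB, ATF3, FOSB and JUN had SDs of 0.27, 0.26, 0.24 and 0.23, NR4A1 0.21 and IER2 0.19. Except for IER2, at percentile 48.4, all of the 9 genes thus varied more between arrays of a group than the median gene.

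**Figure D3:**
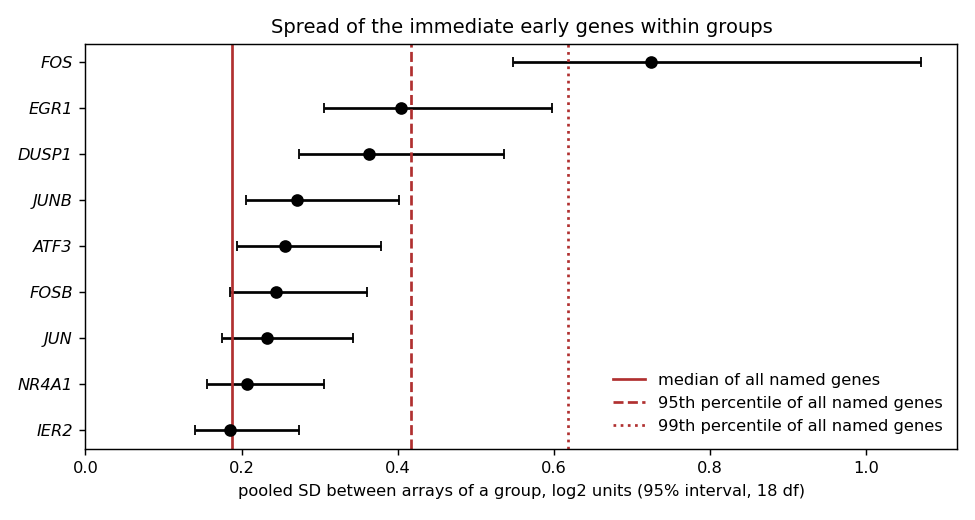
Pooled SD between arrays of a group for each gene in log2 units, with 95% intervals over 18 degrees of freedom, and the median, 95th and 99th percentile of all named genes as vertical lines. FOS at 0.72 lies beyond the 99th percentile of 0.62, EGR1 and DUSP1 lie just below the 95th, and IER2 lies at the median.

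The spread was not even across groups. The SD of FOS was 1.23 in Brahman larva nodes, against 0.55 in Brahman baseline nodes, and as low as 0.18 in Holstein-Friesian adult nodes. The SD of EGR1 was 0.78 in Brahman larva and 0.67 in Bonsmara larva nodes, against 0.054 in Brahman and 0.10 in Bonsmara baseline nodes. In Holstein-Friesian nodes it was 0.156 at baseline, 0.197 with larvae and 0.118 with adult ticks. Each of these SDs rests on 3 arrays. JUNB and IER2 had their largest SDs at baseline, 0.425 in Brahman and 0.349 in Holstein-Friesian nodes. For DUSP1 the SD was 0.75 in Brahman adult nodes, against 0.30 at Brahman baseline. Differences among the 9 groups took 25.3% of the variation of FOS and 44.0% of that of EGR1, against a median of 36.6% over named genes.

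Single arrays carried much of this spread. Brahman adult replicate 3 had the highest values of FOS, JUN and DUSP1 of all 27 arrays, and Bonsmara larva replicate 1 the highest of EGR1. Holstein-Friesian adult replicate 3 had the highest values of JUNB, ATF3 and NR4A1. In Brahman adult replicate 3 the mean of the endothelium markers was 1.14 and that of the macrophage and dendritic cell markers 0.52, both the highest of the 27 arrays, and that of the B cell markers -0.81, the lowest. In Bonsmara larva replicate 1 the endothelium mean was -0.088 and the B cell mean -0.04, ranks 13 and 14 of 27. Its stroma mean was 0.28, rank 3, and its macrophage and dendritic cell mean -0.45, rank 25. In Holstein-Friesian adult replicate 3 the neutrophil mean was 1.13 and the heat shock mean 0.55, both the highest of the 27. Its endothelium and stroma means were -0.42 and -0.49, both rank 25. Brahman larva replicate 1, with the lowest FOS and EGR1 values of the 27 arrays, had a T cell mean of -0.703, rank 27, and a B cell mean of 0.615, rank 1. Its macrophage and dendritic cell mean was -0.597, rank 26, and its endothelium mean -0.38, rank 24. The part of composition or handling in these arrays was not tested.

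Within groups, several of the genes varied together from array to array. After each group mean was subtracted, 34 of 36 pairs had a positive Pearson correlation over the 27 arrays, from -0.046 to 0.809 with a median of 0.419. P-values came from 100000 permutations within groups and were adjusted over the 36 pairs. By Pearson's r 3 pairs passed an adjusted p of 0.05, and by Spearman's rho 1 pair did. FOS and DUSP1 correlated at r = 0.809 (permutation p = 0.00047, adjusted 0.0169) and rho = 0.798 (permutation p = 0.00067, adjusted 0.0241). Without Brahman larva replicate 1 and Brahman adult replicate 3, the arrays farthest from the median of FOS, r was 0.759. FOS and EGR1 correlated at r = 0.787 (adjusted permutation p = 0.0389) and rho = 0.645 (adjusted p = 0.0623), with r = 0.699 without the same pair of arrays. FOS and JUN correlated at r = 0.786 (adjusted permutation p = 0.0389) and rho = 0.746 (adjusted p = 0.0623), with r = 0.703 without that pair. Without the pair of larva arrays that stood apart, over 25 arrays, r was 0.866 for FOS and DUSP1 (adjusted permutation p = 0.00846), 0.838 for FOS and JUN (adjusted p = 0.00846) and 0.780 for FOS and EGR1 (adjusted p = 0.0894), which no longer passed. Within single breeds and stages 3 arrays are too few for a correlation. Among the correlations of FOS with the other 14494 named genes, DUSP1 ranked 2, EGR1 4 and JUN 5. IER2 stood outside this pattern, with a median r of 0.12 with the other genes.

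**Figure D4:**
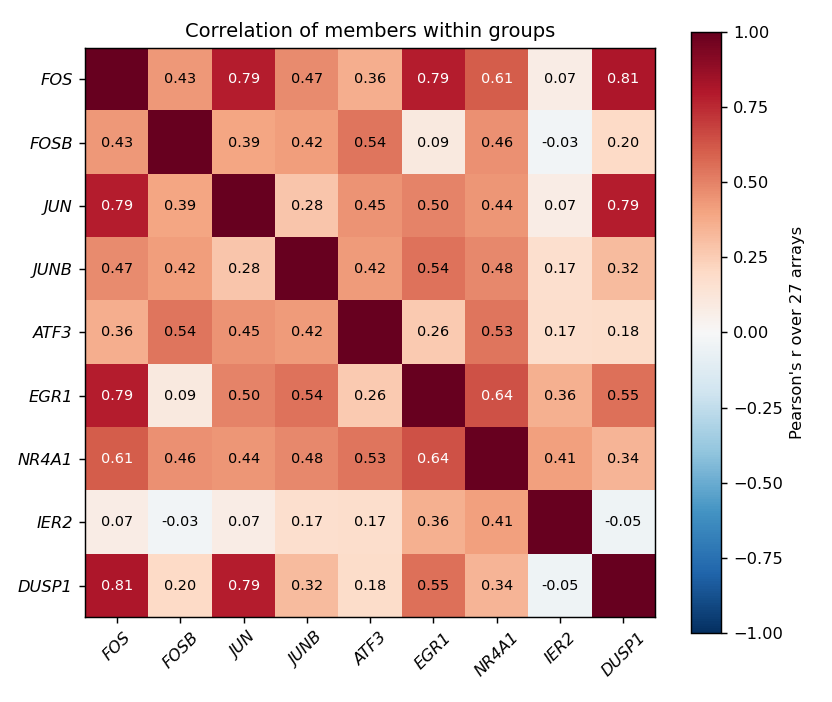
Pearson correlation between the genes over 27 arrays after subtraction of group means, from blue at -1 to red at 1. The highest values are those of FOS with DUSP1 at 0.81, JUN with DUSP1 at 0.79, and FOS with EGR1 and with JUN at 0.79 each; IER2 has values near 0 with FOS, FOSB, JUN and DUSP1.

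**Figure D5:**
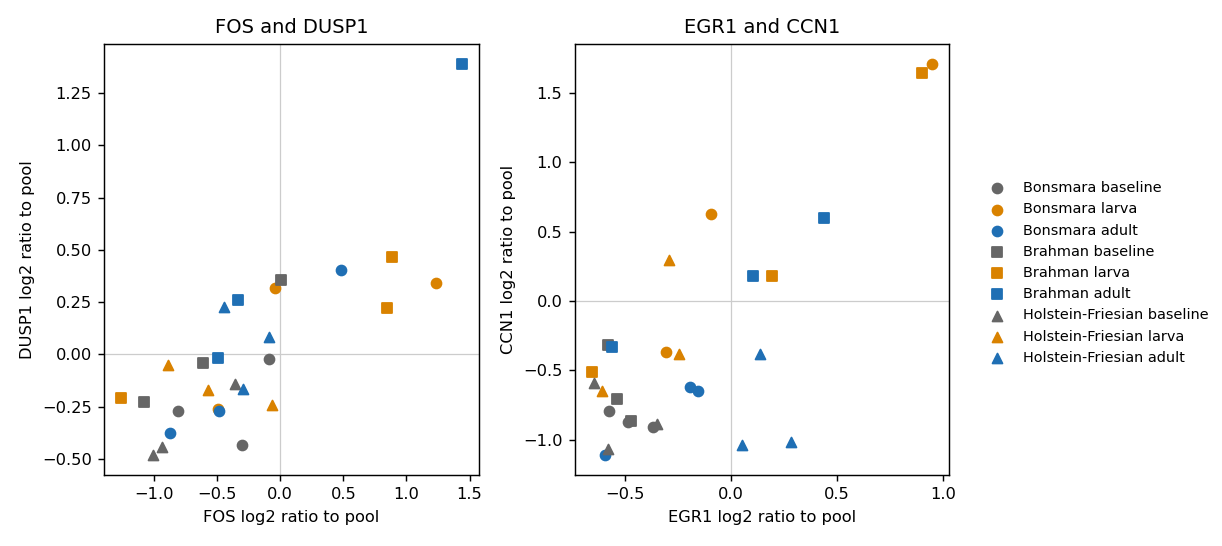
Log2 ratios to the pool of DUSP1 against FOS and of CCN1 against EGR1, each point 1 array, with breed as the shape and stage as the colour. Brahman adult replicate 3 lies alone at the top right of the FOS and DUSP1 plot at 1.44 and 1.39, and Bonsmara larva replicate 1 and Brahman larva replicate 3 lie at the top right of the EGR1 and CCN1 plot.

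A wider list of 48 other immediate early and early response genes, of which 46 were measured, was read beside the set. In larva minus baseline nodes over breeds 1 of the 46, CCN1, rose and 0 fell, 2.17% of the list against 1.21% of all features past the threshold. CCN1 encodes a secreted matrix protein whose gene is an SRF target. CCN1 read 1.71, -0.37 and 0.63 in Bonsmara, -0.51, 0.18 and 1.64 in Brahman, and 0.29, -0.38 and -0.65 in Holstein-Friesian larva nodes. The corresponding baseline arrays read -0.91, -0.87 and -0.79, then -0.87, -0.70 and -0.32, then -1.07, -0.89 and -0.59. All baseline arrays were low, and the larva arrays were spread from baseline values to far above. The difference of CCN1 was 1.06 (SE 0.25, limma adjusted p = 0.038), and 1.14 (adjusted p = 0.0441) without the pair of arrays that stood apart. The call was narrow: 16 of 34 alternatives, most of them leaving out 1 array, lost it, with differences from 0.86 to 1.31 and adjusted p-values from 0.0103 to 0.174.

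In Bonsmara nodes 1 of the 46, ID1, an inhibitor of helix-loop-helix factors, rose with larvae, where 1.11% of all features passed. ID1 read 0.17, 0.20 and 0.49 with larvae, against -0.29, -0.41 and -0.37 at baseline. The difference was 0.65 (SE 0.14, limma adjusted p = 0.0199), and 0.54 (adjusted p = 0.0821) without the pair of arrays that stood apart. Of 35 alternatives 8 lost the call, and the adjusted p ranged from 0.01 to 0.108.

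With adult ticks over breeds 0 of the 46 passed limma's threshold. At an unadjusted p under 0.05, 16 of the 46 were higher and 0 lower, 34.8% against 5.67% of all features that were higher, and the median difference of the list was 0.17, against -0.021 over all features. In the same comparison the share of endothelium markers higher at that level was 62.5%, with a median difference of 0.53, that of neutrophil markers 60%, with a median of 0.37, and that of macrophage and dendritic cell markers 50%, with a median of 0.20. Without the 3 adult arrays of mixed description 16 of the 46 were higher and 1 lower, against 4.68% and 4.29% of all features. Then 2 of the 46, FOSL2, a relative of FOS, and GADD45A, a growth arrest and DNA damage gene, passed with differences of 0.83 and 0.65 (limma adjusted p = 0.0442 and 0.0261), where 0.114% of all features passed. In Holstein-Friesian adult minus baseline nodes 12 of the 46 were higher at that level, 26.1% against 2.73% of all features, and the list's median was 0.17. There 3 of 5 neutrophil markers were higher at that level, with a median of 0.79. At the same level 2 of 5 B cell markers were lower, with a median of -0.47, where 2.15% of all features were lower. The part of cell composition in the counts of the early gene list was not tested. For larva minus baseline over breeds 7 were higher and 2 lower, 15.2% higher against 5.94% of all features, with a median of 0.052, and 6.58% of all features were lower.

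MAP kinases, SRF and CREB act upstream of the early genes. Of 34 genes of the MAP kinase, SRF and CREB pathways 27 were measured, and 0 passed in either stage comparison with baseline over breeds. At an unadjusted p under 0.05, 0 were higher and 1 lower with adult ticks, where 5.78% of all features were lower, and 1 was higher and 2 lower with larvae, against 5.94% and 6.58% of all features. Their median difference was 0.005 with adult ticks and -0.009 with larvae. With larvae 1 of the 27, MRTFB, an SRF coactivator, passed without the pair of arrays that stood apart (difference 0.28, limma adjusted p = 0.0418), where 1.66% of all features passed.

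Lists that bear on handling were counted in the same way. Of 19 measured heat shock genes 0 passed for larva or adult minus baseline over breeds. At an unadjusted p under 0.05, 3 of 19 were higher with larvae, 15.8% against 5.94% of all features, and 1 of 19 with adult ticks, 5.26% against 5.67%. Once the pair of arrays that stood apart was left out, 1.66% of all features passed with larvae. Among them were the chaperone genes HSPH1 and HSPD1 (differences 0.65 and 0.52, limma adjusted p = 0.0355 and 0.0288). Of 22 hypoxia genes 0 passed, and at that level 2 were higher and 3 lower with larvae, 9.09% higher against 5.94% of all features and 13.6% lower against 6.58%. With adult ticks 6 of 22 were higher, 27.3% against 5.67% of all features. In Holstein-Friesian adult minus baseline nodes 5 of 19 heat shock and 7 of 22 hypoxia genes were higher at that level, 26.3% and 31.8% against 2.73% of all features, and 0 passed the threshold. Without the adult arrays of mixed description 46 of all 28927 features passed in that comparison. Among them were the hypoxia genes LDHA and PGK1 (limma adjusted p = 0.00691 and 0.00331) and CREM of the CREB family (adjusted p = 0.016). The neutrophil marker S100A12 passed there too (difference 2.47, limma adjusted p = 0.00125). The list means differed between the adult arrays of this breed: the heat shock mean was 0.28, -0.032 and 0.55 and the hypoxia mean 0.41, -0.003 and 0.38 on replicates 1, 2 and 3.

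FOS and EGR1 were then set against the mean of each list and marker set within groups, 28 relations in all. By Pearson's r 1 passed: EGR1 and the B cell markers, 5 measured of 8, correlated at r = -0.578 (permutation p = 0.0007, adjusted p = 0.0196) and rho = -0.640 (permutation p = 0.00151, adjusted p = 0.0423). Without Bonsmara larva replicate 1 and Brahman larva replicate 1, r was -0.594, and without the pair of arrays that stood apart it was -0.585 and no longer passed (adjusted permutation p = 0.0615). EGR1 and the other early genes correlated at r = 0.770 (permutation p = 0.00438, adjusted p = 0.0613) and rho = 0.705 (permutation p = 0.00319, adjusted p = 0.0447), with r = 0.749 without the same arrays and 0.841 (adjusted permutation p = 0.0238) without the pair that stood apart. FOS and the endothelium markers correlated at r = 0.619 (permutation p = 0.0149, adjusted p = 0.0858). At the same adjusted p, FOS correlated with the other early genes at r = 0.702 and with the macrophage and dendritic cell markers at r = 0.540. At an adjusted permutation p of 0.088, r was -0.574 for FOS and the B cell markers and 0.539 for EGR1 and the endothelium markers. FOS and the heat shock genes correlated at r = 0.281 (permutation p = 0.0794, adjusted p = 0.222), and FOS and the red cell markers at r = -0.102 (permutation p = 0.645, adjusted p = 0.791).

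The named genes most like the mean of the 9 standardised genes, by Pearson's r over the 27 arrays within groups, were ASTE1 at 0.789, BAG3 at 0.783, FLOT1 at 0.771, ACKR3 at 0.762, SELENOH at 0.749, SEMA4C at 0.739, DCLK2 at 0.738 and RALGAPA2 at 0.733. BAG3 is a co-chaperone of HSP70, ACKR3 a scavenging chemokine receptor and FLOT1 a membrane raft protein. These were picked as the highest of all named genes, so their r is a description with no test. For single genes the closest were CEBPD, a leucine zipper factor of the acute phase response, for DUSP1 (r = 0.864) and CCN1 for EGR1 (r = 0.850, Spearman's rho 0.615). The closest to JUN was PDE2A (r = 0.882), to FOS ASTE1 (r = 0.871), to JUNB ACTN1 (r = 0.847) and to FOSB ALDH1L1 (r = 0.847).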

How the data were processed

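The study labelled cDNA of each lymph node sample with Cy5 and of a common reference pool with Cy3, per the labels' protocols. The authors deposited normalized log ratios, taken here as log2 with the base not stated, for 45220 probes on 27 arrays, with no missing value. Limma was used, per the submitters' processing notes. The sources used here do not give its version or the background correction and normalization chosen, and slide and scan batches were not analysed here.

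Probes were named through the platform table and current RefSeq symbols: 30788 probes had 1 symbol (20526 through an accession, 9844 through the symbol, 369 through a synonym, 49 kept as deposited), 14432 had none and 0 had several. Probes of a gene were averaged, giving 14495 genes and, with unnamed probes, 28927 features. One mean per group was estimated over all arrays by limma 3.58.1 (R 4.3.3; 18 residual and 3.86 prior degrees of freedom), with two-sided p-values and Benjamini-Hochberg adjustment over all features. P-values measure only the spread between these arrays. Correlations used Python 3.11.15 with SciPy 1.17.1, pandas 2.3.3 and numpy 2.4.6. The fit was tested on simulated data.

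All listed genes were named, with up to 4 members of each gene list past the threshold per comparison and the genes most correlated with the set. The genes and lists were chosen with earlier results of these data known. No label says that equal replicate numbers share an animal, so the numbers were not used to pair samples. Arrays of a breed with the same number correlated at -0.3 to 0.181 in their deviations from group means, over 0.1 in 7 of 27 pairs. The mean was highest for Brahman adult and larva, 0.127 against -0.064 for unlike numbers. It was lowest for Holstein-Friesian larva and baseline, -0.142 against 0.071. These values do not settle whether animals were shared. Alternatives were array scaling, quantile normalization, array weights, robust moderation, the most variable probe, the compared groups alone, a replicate block and leaving out arrays, among them the 3 adult arrays of mixed description, an alternative chosen after seeing the data. Promoter and protein sequences were not analysed here.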

Additional observations from a re-analysis of the deposited data

How the results depend on the processing

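The count of immediate early genes past limma's threshold was 0 in 752 of 753 combinations of a comparison and an alternative, leaving aside the adult arrays of mixed description, and ranged from 0 to 1 over arrays left out for larva minus baseline over breeds, the exception being EGR1 without Brahman larva replicate 1. Among 6588 single differences under the alternatives, that was the 1 value past the threshold. Without the 3 adult arrays of mixed description, added after seeing the data, the count was 0 in all 11 comparisons with an adult group. Scaling arrays to one interquartile range gave a smallest adjusted p of 0.275, quantile normalization 0.282, array quality weights 0.11 (FOSB, Bonsmara adult minus larva), the most variable probe of each gene 0.332, robust moderation 0.222 and the compared groups alone 0.138. With a replicate block of breed and replicate number, 0 genes passed and the smallest adjusted p was 0.183, for the EGR1 larva minus baseline difference of 0.49; the block changed no call of an immediate early gene. It ended that of ID1 in Bonsmara larva nodes (adjusted p = 0.0525).

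The median difference over the 9 genes moved beyond the spread between arrays in 4 comparisons. For Brahman adult minus larva it was -0.083, against -0.34 with arrays scaled to one interquartile range, and -0.30 to 0.10 over arrays left out. Over arrays left out it ran from -0.18 to 0.21 for Brahman minus Bonsmara with larvae, from -0.32 to -0.039 for Brahman minus Holstein-Friesian with adult ticks, and from -0.40 to -0.094 for Bonsmara minus Holstein-Friesian with adult ticks. The within-group SD moved for FOSB to 0.51 and for NR4A1 to 0.31 with the most variable probe, and for EGR1 to 0.61 and for IER2 to 0.32 with scaled arrays. Without the pair of larva arrays that stood apart, an alternative chosen after seeing the data, the correlations that crossed the threshold by Pearson's r were FOS and EGR1 (r = 0.780) and EGR1 and B cell markers (r = -0.585), which no longer passed, and JUN and DUSP1 (r = 0.869) and EGR1 and the other early genes (r = 0.841), which then passed. By Spearman's rho FOS and JUN (rho = 0.842, adjusted permutation p = 0.0124) and JUN and DUSP1 (rho = 0.822, adjusted permutation p = 0.0162) then passed, and EGR1 and the B cell markers (rho = -0.615, adjusted permutation p = 0.0616) no longer did. For each, the cause was not tested. With 3 arrays a group, the number of arrays limits the precision, and signal over background is not analysed here.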

Other observations

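Heat shock genes, which encode chaperones of the stress response, varied between larva arrays of one breed. Their mean log2 ratio was 0.35, 0.25 and -0.25 in Holstein-Friesian larva nodes, against 0.077, -0.12 and -0.038 at baseline, and the low value came from replicate 3, the array that stood apart. It was 0.017, 0.014 and 0.21 in Bonsmara larva nodes, against -0.089, -0.05 and -0.01 at baseline. In Brahman nodes it was -0.069, 0.061 and -0.004 with larvae, against -0.038, -0.14 and -0.17 at baseline. Holstein-Friesian larva replicate 1, with a heat shock mean of 0.35, had EGR1 at -0.29 and FOS at -0.066. Its FOSB value of 0.38, from probes that disagreed, was the highest of the 27 arrays, and 3 of the 9 genes lay above 0. Holstein-Friesian adult replicate 3, with the highest heat shock mean at 0.55, had the highest JUNB, ATF3 and NR4A1. There 6 of the 9 genes lay above 0.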
